A study of Rattus norvegicus with 8 samples.

Results

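The Cyp3a genes Cyp3a23-3a1, Cyp3a2, Cyp3a18, Cyp3a62 and Cyp3a9, were followed in the liver of 21-day-old rats whose mothers had received a mixture of persistent pollutants. Every probe carrying one of these names in the scanner files was taken, with Cyp3a1 and Cyp3a23/3a1 read as older names of Cyp3a23-3a1, which gave 5 probes, 1 per gene, of 30367 probes on the array. The 5 genes stand among 15168 genes with a symbol. Both groups were male Sprague-Dawley pups left with their own mothers, dosed from gestation through nursing. Control dams were given corn oil. The dams of the 0.5MAhR group received methyl mercury, polychlorinated biphenyls and organochlorine pesticides at 0.5 mg/kg/day. They also received chemicals that activate the aryl hydrocarbon receptor (AhR), namely non-ortho polychlorinated biphenyls, dioxins and furans, at 6.3 ng/kg/day of dioxin toxic equivalents. Each array held liver RNA pooled from 2 pups, with 8 pups and 4 arrays in each group. The labels do not say which dams or litters the pooled pups came from. Litter could therefore not be fitted, and pools that may share a dam were treated as independent. The 8 arrays come from a study of 72 arrays, and the other arrays were not analysed here. In bulk liver, fewer cells of a type and less RNA per cell cannot be told apart.

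Cyp3a enzymes are haem monooxygenases of the endoplasmic reticulum that oxidise testosterone, bile acids and a wide range of drugs. Their transcription is raised by steroids and foreign chemicals through the pregnane X receptor (PXR, Nr1i2) and the constitutive androstane receptor (CAR, Nr1i3), each paired with the retinoid X receptor alpha (Rxra) on repeats of a short half-site. Persistent chlorinated chemicals of the kind in the mixture are known activators of CAR and PXR in rodent liver, while Cyp1a1 is the classical target of the AhR. In the rat, Cyp3a23-3a1 is the form best known for induction by dexamethasone and pregnenolone carbonitrile, and Cyp3a2 and Cyp3a18 become male-predominant at puberty. Cyp3a9 is more abundant in females after puberty, and Cyp3a62 is mainly an intestinal form.

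Cyp3a23-3a1 and Cyp3a2 were next to each other among the coding genes of chromosome 12, and their promoters were the most alike of the family. Their promoters are shown because they alone among the 5 genes carried the repeat that PXR is known to bind. Windows of 300 bases, from 250 before to 50 after the start, come from RefSeq on build GRCr8 and run 5′ to 3′ in the direction of the gene. Capitals mark a direct repeat with 3 bases between the half-sites (DR3), searched as AGTTCA or AGGTCA in every combination on both strands. The Cyp3a23-3a1 window is chr12:14398754-14399053 on the minus strand and the Cyp3a2 window is chr12:14343808-14344107 on the minus strand. The Cyp3a18 window, chr12:13994062-13994361 on the plus strand, is given for contrast and holds no such repeat.
Cyp3a23-3a1: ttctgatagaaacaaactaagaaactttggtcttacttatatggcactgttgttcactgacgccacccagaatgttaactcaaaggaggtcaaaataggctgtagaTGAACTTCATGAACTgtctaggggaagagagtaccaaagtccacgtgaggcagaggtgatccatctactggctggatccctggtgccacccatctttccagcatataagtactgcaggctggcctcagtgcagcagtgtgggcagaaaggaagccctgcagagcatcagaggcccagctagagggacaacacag
Cyp3a2: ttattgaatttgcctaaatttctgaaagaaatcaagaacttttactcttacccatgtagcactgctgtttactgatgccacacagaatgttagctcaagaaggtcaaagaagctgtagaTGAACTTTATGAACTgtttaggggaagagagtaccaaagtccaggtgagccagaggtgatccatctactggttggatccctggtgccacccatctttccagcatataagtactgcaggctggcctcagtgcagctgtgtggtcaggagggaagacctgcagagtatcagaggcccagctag
Cyp3a18: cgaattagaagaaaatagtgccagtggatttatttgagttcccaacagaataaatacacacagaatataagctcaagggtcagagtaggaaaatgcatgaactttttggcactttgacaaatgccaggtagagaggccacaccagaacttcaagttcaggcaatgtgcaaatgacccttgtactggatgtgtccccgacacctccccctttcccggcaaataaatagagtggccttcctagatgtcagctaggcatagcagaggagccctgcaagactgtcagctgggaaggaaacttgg

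In Cyp3a23-3a1 the repeat lay from -144 to -130 relative to the start, on the strand opposite to the gene, and read AGTTCATGAAGTTCA there. In Cyp3a2 it lay from -131 to -117 on the same strand and read AGTTCATAAAGTTCA. The copies differed by 1 substitution, G8A, counted from 1 at the 5′ end of the Cyp3a23-3a1 match on that strand, which falls in the spacer. Such a repeat occurred in 14 of 33469 RefSeq windows of this length (0.0418%), belonging to 11 genes, of which only Cyp3a23-3a1 and Cyp3a2 were tested on these arrays. Half-sites alone, as AGTTCA, occurred in 14.5% of windows and in all 5 Cyp3a windows, with 2 copies each in Cyp3a23-3a1, Cyp3a2 and Cyp3a18. Each repeat counted here contains such half-sites, so these counts overlap. An everted repeat of the half-sites with 6 bases between them (ER6) occurred in 0.00598% of windows and in 0 of the 5. The AhR core GCGTG occurred in 29.7% of windows and in 0 of the 5. Aligned with each other, the Cyp3a23-3a1 and Cyp3a2 windows shared 251 of 287 columns (87.5%), while the other pairs of the family shared 52.5% to 67.8%. A match is only a run of letters in this window.

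Values are log2 ratios of liver signal, labelled with Cy5, over a universal rat reference RNA from 14 cell lines, labelled with Cy3. All 8 arrays had the same dye orientation, so a level against the reference is open to dye bias. Both groups share that bias when they are compared with each other. A probe entered the test if either group had 3 or more of its 4 arrays well above background in Cy5, and 11404 probes did. Differences were tested with limma over all of these probes, p-values were adjusted by the Benjamini-Hochberg method and the threshold was 0.05. Slide positions are not in the sample labels and were read from the 2 numbers that end each scan's name, taken as column and row. By these, the 8 arrays lay in 2 columns of 1 slide. Each column held 2 arrays of each group, so the column can be fitted without moving the difference itself. The share of liver signals marked as well above background was 42.9% to 49.2% of spots per array, with 0 spots saturated. The 6 hepatocyte markers were all well above background on 8 arrays, and 3 of 4 lymphocyte markers with a probe were so on none.

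None of the 4 Cyp3a genes that could be tested passed the threshold, with or without slide column in the fit. Over all probes the share past it was 0.00877% without slide column and 0.0789% with it, so 0 of 4 lies near the background and is no result about the family. Groups overlapped for all 5 genes, and over all probes tested 1.29% had groups that did not overlap. Without slide column 1.52% of all probes, and with it 6.37%, had an unadjusted p under 0.05. Among the Cyp3a genes 0 did so without slide column and 1, Cyp3a62, with it.

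Cyp3a23-3a1, the inducible steroid hydroxylase, did not differ beyond its spread. In the Control arrays its log2 ratio was 6.76, 6.94, 6.63 and 6.61 in replicates 5 to 8. In 0.5MAhR replicates 1 to 4 it was 6.94, 6.48, 6.80 and 7.05. The highest and the lowest array both belonged to the mixture group, so the Control values lay inside its range. The means were 6.74 ± 0.15 (SD, n = 4) in Control and 6.82 ± 0.25 in 0.5MAhR. The difference was 0.08 with a standard error of 0.14 and a 95% interval of -0.24 to 0.41, or 0.846-fold to 1.33-fold (limma, adjusted p = 1.00, and 0.941 with slide column). It was 0.07 within column 1 and 0.09 within column 2. Fold changes between those bounds, in either direction, lie inside the interval.

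Cyp3a2, a testosterone hydroxylase, was the Cyp3a gene with the lowest mixture mean relative to Control, and this too stayed within the spread. Control replicates 5 to 8 had log2 ratios of 8.78, 9.36, 9.12 and 9.45. The 0.5MAhR replicates 1 to 4 had 8.79, 8.51, 9.24 and 9.22. Mixture replicates 1 and 2 were low, the other two fell among the Control values, and Control replicate 5 was as low as mixture replicate 1. The means were 9.18 ± 0.30 (SD, n = 4) and 8.94 ± 0.35, a difference of -0.24 with a standard error of 0.21 (0.848-fold, 95% interval 0.612 to 1.17, limma, adjusted p = 1.00). With slide column fitted the standard error was 0.17 and the adjusted p 0.889. The difference was -0.09 within column 1 and -0.39 within column 2. It was -0.49 when the processed signals of the scanner software were used, -0.20 with median centring and -0.12 from Cy5 alone. The 6 hepatocyte markers were lower in the mixture group as well, by a median of -0.12, with 0 past limma's threshold and 0 at an unadjusted p under 0.05. Their summed net Cy5 signal ranged from 532662 to 627081 in Control and from 475814 to 658185 in 0.5MAhR. The 5 Kupffer cell markers were all higher, by a median of 0.13, with 0 past limma's threshold and 0 at an unadjusted p under 0.05. Their summed net Cy5 signal was 3770 to 5467 in Control and 3578 to 7914 in 0.5MAhR. The part of either marker list in the Cyp3a2 value was not tested.

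Cyp3a18, a male-predominant form in adults, had nearly the same mean in both groups and the widest spread of the 5 genes. Control replicates 5 to 8 had log2 ratios of 3.93, 4.82, 4.97 and 4.59. The 0.5MAhR replicates 1 to 4 had 5.25, 4.24, 4.26 and 4.32. Replicate 1 was the highest of all 8 arrays and the other 3 mixture arrays lay close together between the Control values. The means were 4.58 ± 0.46 (SD, n = 4) and 4.52 ± 0.49, and the difference was -0.06 with a standard error of 0.29 (95% interval -0.71 to 0.59, limma, adjusted p = 1.00, and 0.981 with slide column). It was -0.17 within column 1 and 0.05 within column 2, so its sign was not settled. Leaving out Control replicate 6, Control replicate 7, or 0.5MAhR replicate 2, 3 or 4 turned it positive, at most to 0.07, and leaving out 0.5MAhR replicate 1 took it to -0.30.

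Cyp3a62, the mainly intestinal form, was dim in liver and was tested only because 3 mixture arrays were well above background, against 2 Control arrays. A gene that enters through the group where it is higher had to lean that way. Its log2 ratio was 0.48, 0.67, 1.03 and 0.48 in Control replicates 5 to 8 and 1.14, 1.00, 0.65 and 1.34 in 0.5MAhR replicates 1 to 4. Mixture replicates 1, 2 and 4 lay near or above the highest Control array, and mixture replicate 3 lay among the lower ones. The means were 0.66 ± 0.26 (SD, n = 4) and 1.03 ± 0.29, and the difference of 0.37 had a standard error of 0.18 (1.29-fold, 95% interval on the log2 scale -0.03 to 0.78, limma, adjusted p = 1.00). With slide column fitted the interval was 0.04 to 0.70 with an unadjusted p of 0.0331 and an adjusted p of 0.730. Net Cy5 signals were 19.0 to 58.0, on arrays whose median Cy5 background was 68 to 73, and the size of the difference moved with the processing. It was 0.35 when no background was taken off, 0.57 at the smaller normexp offset of 16, 0.89 with processed signals, 0.24 with median centring and 0.23 from Cy5 alone.

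Cyp3a9, the form that is female-predominant after puberty, was not well above background in Cy5 on any of the 8 liver arrays and could not be tested. Its net Cy5 signal was -0.25 to 8.5, whereas the reference RNA gave 464 to 599 in Cy3 and was well above background on all 8. The log2 ratio was -1.92 ± 0.08 (SD, n = 4) in Control and -1.93 ± 0.25 in 0.5MAhR. These ratios are set by the background of the liver channel and by the offset of 50 that the background correction adds to every signal. They give only a bound: the reference exceeded liver at least 3.79-fold in Control and at least 3.80-fold in 0.5MAhR.

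**Figure D1:**
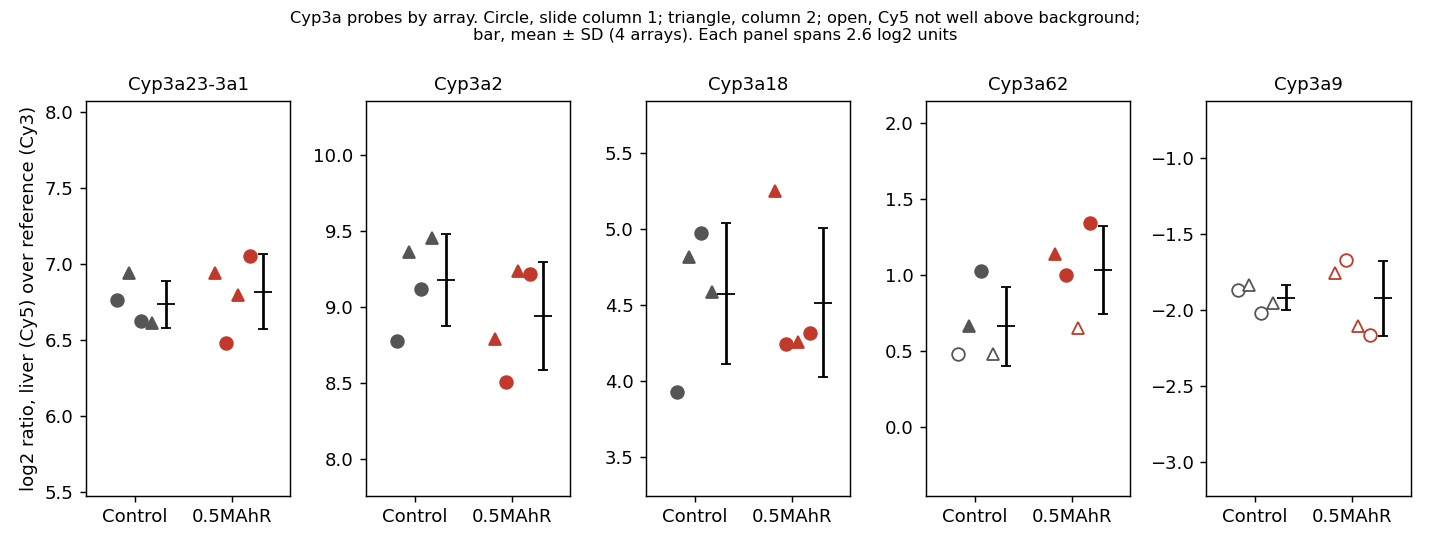
Log2 ratio of liver over reference for each Cyp3a probe on each of the 8 arrays, with the mean and SD of 4 arrays beside each group; circles are slide column 1, triangles column 2, and open symbols arrays where Cy5 was not well above background. The groups overlap in all 5 panels, and the Cyp3a18 array at 5.25 (0.5MAhR replicate 1) stands apart from the other mixture arrays.

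Against the reference, 3 of the genes were far brighter in liver. Cyp3a23-3a1 was well above background in Cy3 on 0 of 8 arrays, and liver exceeded the reference at least 94.1-fold in Control and at least 101-fold in 0.5MAhR. Cyp3a18 gave bounds of at least 22.6-fold and at least 21.7-fold in the same way. Cyp3a62 was near background in both channels, and no fold is given for it. These bounds set the lowest signal well above background on each array, or the probe's own where higher, against the liver signal. Cyp3a2 was well above background in Cy3 on 3 Control and 4 mixture arrays. Its ratios put liver 579-fold (Control) and 491-fold (0.5MAhR) above the reference, although its net Cy3 was only 27.2 to 55.2. The background correction adds an offset of 50 to every signal, so these 2 folds depend on that offset and are not exact. The Control figure includes replicate 8, where Cy3 was not well above background, at its measured signal. Levels of different probes were not set against each other, since probes differ in brightness. The reference signal itself, which should be the same on every array, differed between groups by -0.03 to 0.07 on the log2 scale at the 5 probes (limma on Cy3 alone, adjusted p = 1.00 for the 4 tested). At Cyp3a23-3a1, Cyp3a18 and Cyp3a62, Cy3 was well above background on 0 of 8 arrays. There the comparison is mostly of background and offset, so it cannot show that the reference was equal. Cyp3a9, where Cy3 was well above background on all 8 arrays, differed by -0.03 and was not tested.

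The Cyp3a18 probe was printed in 10 spots on each array and the other 4 probes in 2, and the repeats showed a gradient across the slide. Between array rows 37 and 368, from the first to the last spot kept on each array, the Cyp3a18 ratio rose by 0.59 to 0.87 on the 4 arrays of column 1. On the 4 arrays of column 2 it changed by -1.49 to -0.66. Both groups followed the gradient of their column. Across the 384 rows of an array the fitted change of Cyp3a18 was 0.79 to 0.91 in column 1 and -1.88 to -0.92 in column 2. The median over 887 other probes with 10 spots was 0.80 to 0.82 in column 1 and -1.18 to -0.74 in column 2, so the gradient was not peculiar to Cyp3a18. Spot by spot, the group difference of Cyp3a18 was negative at 7 and positive at 3 of the 10 positions, and ranged from -0.20 to 0.17.

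Cyp3a23-3a1, whose spots lay in rows 4 and 339, was the 2-spot gene most exposed to this gradient. Its second spot read 0.43 to 1.07 higher than its first in column 1, and in column 2 the second minus the first was -1.62 to -1.04. Those gaps were several times the group difference of 0.08. Each spot by itself gave a difference of 0.13 and 0.04, since each column held both groups equally. The Cyp3a2 spots, in rows 128 and 172, gave differences of -0.25 and -0.22. The Cyp3a62 spots, in rows 255 and 289, gave 0.42 and 0.32. On each array a smoothed curve (lowess, span 0.3) over array rows, drawn from the 887 other probes with 10 spots, was then subtracted. This step was chosen after seeing the data. The SD among Cyp3a18 spots fell from 0.24 to 0.54 down to 0.10 to 0.26. With slide column fitted as well, the differences were 0.07 for Cyp3a23-3a1, -0.24 for Cyp3a2, -0.05 for Cyp3a18 and 0.39 for Cyp3a62 (limma, adjusted p from 0.685 to 0.981).

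**Figure D2:**
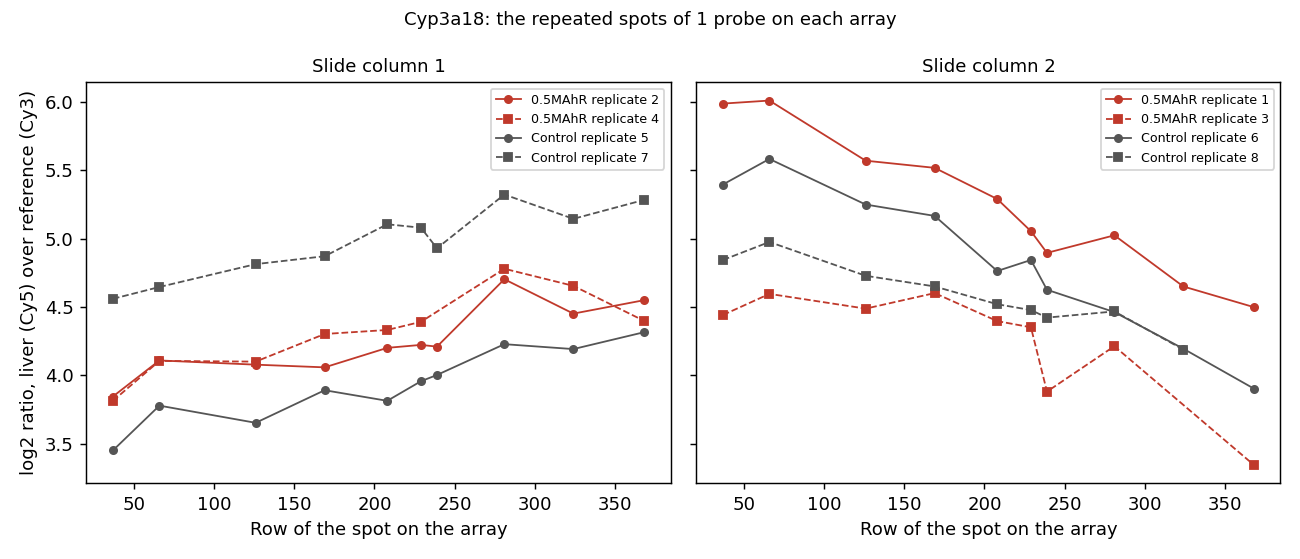
Log2 ratio of liver over reference for each spot of the Cyp3a18 probe against the row of the spot on the array, 1 line per array, grey for Control and red for 0.5MAhR, with outlier spots left out. Lines rise by 0.59 to 0.87 from the first to the last spot in column 1 and fall in column 2, in both groups.

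Lists of related genes were compared by the brightest probe of each gene, over 10565 genes or unnamed probes, of which 0.00947% passed the threshold without slide column and 0.0473% with it. With slide column fitted and the gradient removed the share was 0.0568%. The lists were chosen with earlier results of these data known, so their counts are a description. Of 23 other targets of PXR and CAR, 18 were tested, and 17 had a higher and 1 a lower mean in the mixture group. Their median difference was 0.48, against -0.01 over all genes tested. Without slide column 0 of the 18 passed limma's threshold, though 10 had an unadjusted p under 0.05 (162 of all 10565), and with it 1 passed: Cyp2b2, a phenobarbital-inducible P450, rose by 2.04 with a standard error of 0.37 (limma, adjusted p = 1.00 without and 0.0296 with slide column). With slide column, the Cyp2b2 call was lost without Control replicate 5 or 8, or 0.5MAhR replicate 1, 3 or 4 (adjusted p up to 0.132), and its difference stayed between 1.82 and 2.25. With slide row fitted it had an adjusted p of 1.00, and with processed signals its difference was only 0.70 (adjusted p = 0.751). Akr7a3, an aflatoxin aldehyde reductase, was 1.28 higher and had an adjusted p of 0.0574 with slide column and 0.0390 when the gradient was removed too. The other 15 with a higher mean, such as Ephx1, the microsomal epoxide hydrolase, at 0.98 and Abcc2, a canalicular exporter, at 0.42, did not pass. Ces2h, a carboxylesterase, was well above background on 0 Control and 3 mixture arrays and was tested only through the latter. It therefore had to count among the 17 higher, and it is also 1 of the 10 with an unadjusted p under 0.05 without slide column. The differences of the Cyp3a genes lay at 0.08, -0.24, -0.06 and 0.37, and the upper ends of their 95% intervals at 0.41, 0.23, 0.59 and 0.78. The lower end for Cyp2b2 was 1.19. The gap between Cyp2b2 and the Cyp3a genes was not itself tested.

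**Figure D3:**
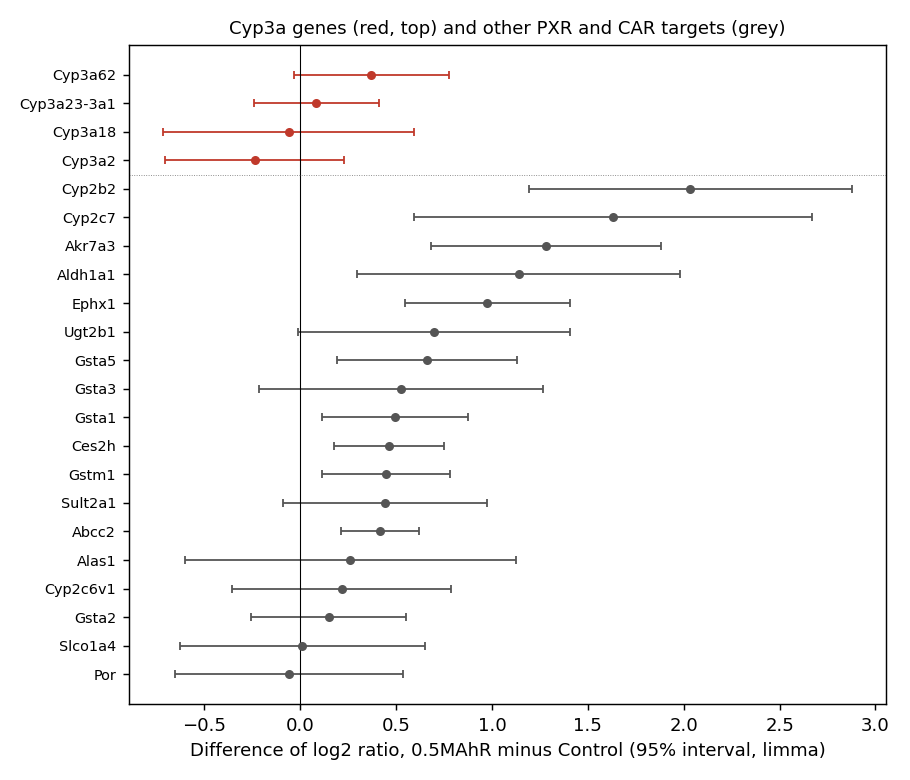
Difference of log2 ratio, 0.5MAhR minus Control, with its 95% interval from limma without slide column, for the 4 tested Cyp3a genes (red) and the 18 tested other targets of PXR and CAR (grey). All 4 Cyp3a intervals include 0, while 17 of the 18 other targets have a difference above 0, the highest being Cyp2b2 at 2.04. The list was chosen with earlier results of these data known, and Ces2h was tested only through the mixture arrays.

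The receptors and factors that control Cyp3a transcription showed no change past the threshold. Of 16 regulators listed, 11 were tested, 7 with a higher and 4 with a lower mean, the median difference was 0.02, and limma placed 0 past the threshold with or without slide column, with 0 at an unadjusted p under 0.05 in either fit. Ahr, counted among the 7 higher, was well above background on 1 Control and 3 mixture arrays and was tested only through the latter. Nr1i2, which encodes PXR, differed by -0.11 with a standard error of 0.11. Nr1i3, which encodes CAR, differed by -0.04 (standard error 0.28) and Rxra by -0.02 (0.27). Hnf4a, a hepatocyte factor required for Cyp3a expression, differed by 0.04 (0.15). Nr3c1, the glucocorticoid receptor, was well above background on 0 of 8 arrays. All 11 had an adjusted p of at least 0.877 with slide column fitted.

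P450 enzymes draw electrons from partner proteins and carry haem. A list of such electron donors, haem-binding partners and the haem enzymes Alas1 and Hmox1 held 8 genes, all tested. Of the 8, 6 had a higher mean and 2 a lower one, with a median of 0.07. Cyb5a, cytochrome b5, which stimulates many Cyp3a reactions, rose by 0.54 with a standard error of 0.20 and passed only with slide column fitted (limma, adjusted p = 1.00 without and 0.0224 with it). Leaving out any array but 0.5MAhR replicate 2 ended that call (limma, adjusted p 0.0580 to 0.132). Without 0.5MAhR replicate 2 it held at an adjusted p of 0.0472, and the difference stayed between 0.51 and 0.55 throughout. Por, the reductase that serves all microsomal P450s, differed by -0.06 (standard error 0.26). Pgrmc1, a haem-binding partner of P450s, was 0.37 higher (standard error 0.16, adjusted p = 0.290 with slide column).

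Other P450s gave the comparison for the AhR arm of the mixture. Cyp1a1 rose by 4.04 with a standard error of 0.33 and passed with and without slide column (limma, adjusted p = 0.00923 without and 0.00279 with slide column), the 1 gene of 12 in that list to do so. Without slide column the call was lost when Control replicate 5 or 7 or 0.5MAhR replicate 2 or 3 was left out (adjusted p up to 0.0732), with it the call held each time, and the difference was 3.84 to 4.34. The call was also lost with slide row fitted (adjusted p = 0.159), within column 2 (0.198) and with processed signals (0.163), at differences of 4.04, 3.79 and 5.20. Besides Cyp1a1, only Cyp2d1 among those 12 P450s had an unadjusted p under 0.05 (limma, 0.0102 without and 0.00487 with slide column). Cyp2d1 differed by -0.41 and did not pass the threshold in either fit. Of 12 sex-dependent liver enzymes, 6 were tested, 4 with a higher and 2 with a lower mean, and 0 passed in either limma fit (at an unadjusted p under 0.05 were Cyp2c11 alone without slide column, and Cyp2c11 and Cyp2c12 with it), with a median of 0.05. Cyp2c11, the male-specific P450 of adults, was well above background on 0 Control and 4 mixture arrays and was tested only through the latter, at 0.57, so it had to count among the 4 higher. Cyp2c12, the female-specific form of adults, was 0.76 higher, though the difference was -0.03 within column 1 and 1.54 within column 2. Cyp2c22 and Srd5a1, the steroid 5-alpha-reductase, differed by -0.24 and -0.08.

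Over the 8 arrays, with slide column means subtracted, the tested Cyp3a genes that were well above background throughout varied largely apart from one another. Pearson's r was 0.23 between Cyp3a23-3a1 and Cyp3a2, 0.10 between Cyp3a23-3a1 and Cyp3a18, and -0.04 between Cyp3a2 and Cyp3a18. Of 5991 genes compared, those most like Cyp3a23-3a1 were Gltp (0.948), Arl5a (0.946) and Acad11 (0.938). Those most like Cyp3a2 were Gnl2 (0.989), Acsm3 (0.963) and Llgl2 (0.956), and those most like Cyp3a18 were Txn2 (0.962), Axin1 (0.957) and Gtf3a (0.951). These are the top of many correlations over few arrays that share a slide, so they are a description. With column means kept, r became -0.04 for Gltp, -0.21 for Gnl2, -0.27 for Axin1 and -0.25 for Gtf3a, while Acsm3 stayed at 0.964.

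**Figure D4:**
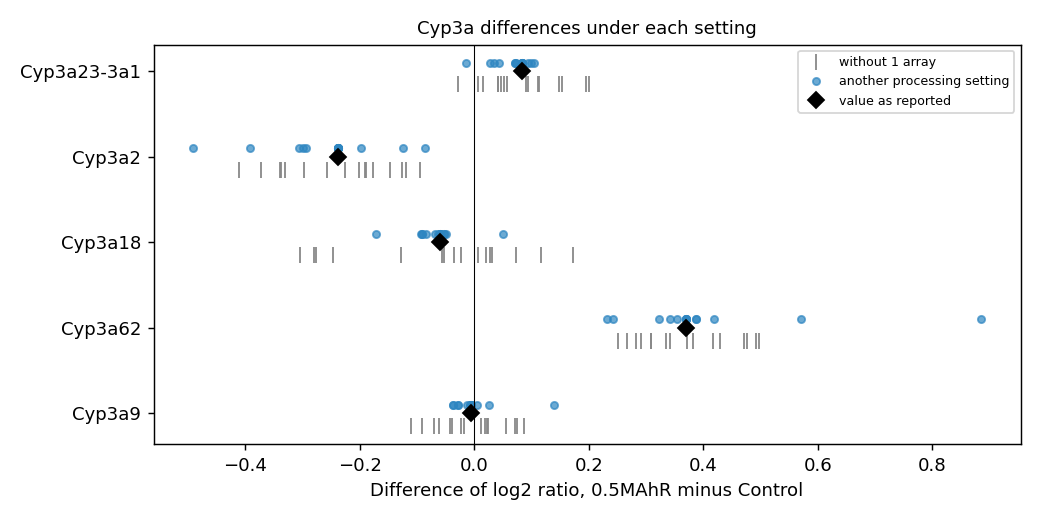
Difference of log2 ratio, 0.5MAhR minus Control, for each Cyp3a gene: the diamond is the value as reported, circles are other processing settings and ticks are fits without 1 array. Cyp3a2 stayed below 0 and Cyp3a62 above 0 under every setting drawn, and Cyp3a23-3a1, Cyp3a18 and Cyp3a9 crossed 0. Cyp3a62 was tested only through the mixture arrays, so it had to lean that way.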

How the data were processed

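Liver RNA (200 ng per array) was labelled with Cy5 and reference RNA with Cy3, per the labels' protocols. Spot intensity values, per the file headers written by Feature Extraction 11.0.1.1, are the deposited median foreground and background signals, and the marks for spots above background or outlying come from the same deposited files. The deposited table of log2 ratios was made by the authors in a way not given in the sources used here. It correlated at 0.996 to 0.997 with the ratios computed here, its column medians were -0.0389 to -0.0326, its centring is unknown, and it was used as 1 of the alternatives.

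The fits ran under R 4.3.3 (limma 3.58.1). Normexp with an offset of 50 removed background, arrays were normalised by loess with control spots at weight 0, the 771 to 956 outlier spots per array were dropped and spots of a probe were averaged. A probe counted as above background where most of its spots did. Genes were named through RefSeq accessions of assembly GRCr8 for 18005 probes. Groups came from the sample labels, and all single-gene p-values are two-sided from lmFit and eBayes. The labels number the Control pools 5 to 8 and the 0.5MAhR pools 1 to 4. The number of arrays limits precision. The fits were also run on simulated data whose means, column differences and residual spread came from these arrays. The design had assumed mean signals, and median signals were used because they were the columns at hand.

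Members and gene lists were chosen with earlier results of these data known. Named were all Cyp3a probes, Nr1i2, Nr1i3, Rxra, Nr3c1, Hnf4a, Por, Cyb5a, Pgrmc1 and Cyp1a1, in other lists the genes past 0.05 or else the 2 with the smallest p in each direction, and the 3 genes most correlated with each Cyp3a gene. Ephx1, Abcc2, Akr7a3, Ces2h and Cyp2d1 were named after their values were seen. Probe sequences were not used here, so whether the probes of near-identical Cyp3a paralogs share signal was not tested. Alternatives covered background correction, normalisation, scaling, filters, outlier spots, slide position, the deposited table, Cy5 alone and leaving out each array.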

Additional observations from a re-analysis of the deposited data

Results flagged for a closer look

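Within the 0.5MAhR group, the Cyp3a18 log2 ratio of replicate 1 stood far from the others, at 5.25 against 4.24 to 4.32. The gap to its neighbour was 0.924 of the range of the 4 arrays, above Dixon's 95% critical value for 4 values. The 10 sets of values (5 genes in 2 groups) were examined this way, and chance singles out about 1 in 20 such sets. Without that array the difference between groups was -0.30.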

How the results depend on the processing

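Arrays were not paired by replicate, because the groups share no replicate number. Each slide row holds 1 array of each group, and slide row was fitted as an alternative. Cyp3a2 kept a negative and Cyp3a62 a positive difference under every alternative run, and no Cyp3a gene passed the threshold under any. Cyp3a23-3a1 changed sign with processed signals (-0.014) and ranged from 0.006 to 0.20 when each array was left out, and from -0.028 to 0.20 with slide column fitted as well. Cyp3a18 changed sign within slide column 2 (0.051) and ranged from -0.30 to 0.073 and, with slide column, from -0.28 to 0.17 without each array in turn (0.117 without 0.5MAhR replicate 3). The ranges for Cyp3a2 were -0.37 to -0.09 and -0.41 to -0.12, and for Cyp3a62 0.27 to 0.50 and 0.25 to 0.48. The correlations of Gltp (-0.042), Gnl2 (-0.21), Axin1 (-0.27) and Gtf3a (-0.25) turned negative with column means kept.

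Probes past limma's threshold numbered 1 (173 at an unadjusted p under 0.05), and 0 with processed signals, slide row fitted or all 8 arrays required above background, where Cyp1a1 is left out by construction. They numbered 2 within column 1, 8 with the position trend removed, 9 with slide column and 9 with both. The count was 0 to 2 without each array, and 1 to 16 with slide column (15 without Control replicate 7). Genes of the fixed lists past it numbered 1, and 0 with processed signals, slide row, all 8 arrays or within column 2, 3 with the trend removed, 3 with slide column and 4 with both. Leaving out each array gave 0 to 1, and 1 to 4 with slide column. Except for the all-array filter, the cause was not tested. Position trend removal was chosen after seeing the data.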
